A study of Homo sapiens with 6 samples.

Results

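The genes described here encode the kinetochore, the protein assembly that joins each chromosome to the mitotic spindle, and the spindle checkpoint, which holds anaphase back until every kinetochore is attached. They were chosen as a family by function, 44 genes in all, and a gene was measured where a probe set of the array listed it as its only gene symbol; where several did, the probe set with the highest mean of the 6 arrays stood for the gene. This gave 42 measured members among 18417 genes. CENPA and PMF1 had no probe set of their own. The arrays came from RPMI 8226, an established human multiple myeloma line, that is, malignant plasma cells grown in culture. One group of 3 arrays came from cells given 0 Gy of carbon ions and the other group of 3 from cells given 6 Gy, a dense form of particle radiation, and RNA was taken from both 1 day later. No drug, transgene or genetic change is named for either group. The labels number the samples 1 to 3 within a dose without saying whether they were separate cultures; the p-values therefore rest on a spread that may be technical.

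Kinetochores are built in layers. The histone variant CENPA marks the centromere, the constitutive inner proteins (CENPC and the CENPH, CENPL, CENPO and CENPT groups) sit on it, and the KNL1, MIS12 and NDC80 complexes form the outer plate that grips microtubules. The corona proteins and the checkpoint kinases are loaded on that plate in mitosis. Many genes of the family are transcribed mainly in G2 and M phase. Their promoters often carry a cell cycle homology region (CHR), close to CCAAT boxes bound by NF-Y. The CHR is an element through which the DREAM complex silences these genes outside those phases. In bulk RNA, a smaller share of cells in a phase and less mRNA per cell cannot be told apart.

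Promoter sequence was available for 34 of the 42 measured members, as RefSeq windows of GRCh38.p14 running from 250 bases before to 50 bases after the annotated start. The stretches printed run from 100 bases before to 30 after the start and are shown because they belong to members that fell (CENPE, CENPF, NDC80, NUF2), one that rose (BUB1), and 2 that did not pass the test (CDCA8, SPC25). Capitals mark TTTGAA or TTCGAA, the CHR letters searched, and CCAAT, each on either strand.
CENPE (chr4:103198314-103198443, minus strand): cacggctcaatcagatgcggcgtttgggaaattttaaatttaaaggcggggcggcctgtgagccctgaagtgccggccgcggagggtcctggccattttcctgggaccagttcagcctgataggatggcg
CENPF (chr1:214603095-214603224, plus strand): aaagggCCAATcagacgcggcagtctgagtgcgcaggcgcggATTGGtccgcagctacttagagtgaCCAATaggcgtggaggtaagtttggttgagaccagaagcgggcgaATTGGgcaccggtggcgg
NDC80 (chr18:2571457-2571586, plus strand): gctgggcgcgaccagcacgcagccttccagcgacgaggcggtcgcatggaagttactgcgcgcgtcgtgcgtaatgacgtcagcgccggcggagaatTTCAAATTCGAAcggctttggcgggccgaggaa
NUF2 (chr1:163321854-163321983, plus strand): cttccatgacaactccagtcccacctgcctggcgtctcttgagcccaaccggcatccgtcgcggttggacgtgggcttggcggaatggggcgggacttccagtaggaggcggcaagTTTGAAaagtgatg
BUB1 (chr2:110678034-110678163, minus strand): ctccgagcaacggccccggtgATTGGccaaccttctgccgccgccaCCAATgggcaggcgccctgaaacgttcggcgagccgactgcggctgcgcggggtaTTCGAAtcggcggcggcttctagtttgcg
CDCA8 (chr1:37692416-37692545, plus strand): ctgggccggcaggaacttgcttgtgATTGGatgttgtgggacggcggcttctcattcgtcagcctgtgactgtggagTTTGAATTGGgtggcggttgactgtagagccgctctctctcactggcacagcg
SPC25 (chr2:168890401-168890530, minus strand): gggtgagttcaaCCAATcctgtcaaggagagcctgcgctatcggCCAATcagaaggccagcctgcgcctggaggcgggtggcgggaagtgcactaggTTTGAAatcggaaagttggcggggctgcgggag
CHR letters lay within 50 bases of the start in NDC80, NUF2, BUB1, CDCA8 and SPC25, although these genes went different ways after irradiation, as given for each below. In NDC80 a match that spans the start adjoins a second one, and in CDCA8 the CHR shares a base with a CCAAT box. The CHR of CENPF lies past the printed end, at base 41 after the start, and the CENPE stretch holds neither motif.

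The arrays as a whole were alike: the lowest correlation was 0.9964 between arrays of the same dose and 0.9924 between doses. Values are log2 intensities, so a difference of 1 is a doubling or halving, and a gene's difference had a standard error (SE) of 0.0802 in the median. The table gives no detection calls, but all 42 members lay above the dimmest 33.3% of genes, with unirradiated means from 6.04 (CENPQ) to 11.5 (SKA2); such values differ between probe sets for technical reasons and were not ranked. Plasma cell markers were present, with unirradiated means of 11.5 for IRF4, 11.1 for PRDM1 and 9.98 for SDC1, although SLAMF7 was dim at 4.63. Markers of T cells and myeloid cells had unirradiated means of 4.07 to 7.36 and 3.21 to 6.81; of the fibroblast and epithelial list, EPCAM (10.5) and KRT18 (9.63) were bright. The summed linear intensity of the 6 T cell markers ran from 334 to 363 on unirradiated and from 381 to 431 on irradiated arrays, and that of the 6 myeloid markers from 188 to 229 and from 253 to 274. For the 6 fibroblast and epithelial markers the sums were 2350 to 2560 and 2210 to 2380, and for the 9 plasma cell markers 17000 to 17200 and 15800 to 16300. Of the plasma cell markers CD38 and XBP1 fell and SLAMF7 rose; of the others TRAT1, ITGAM, COL1A1 and COL3A1 rose and EPCAM fell (limma). With 1 array left out the limma calls ended for XBP1 (each except irradiated replicate 3, adjusted p up to 0.117), COL1A1 (each of the 6, up to 0.113), COL3A1 (each except irradiated replicate 1, up to 0.0845), TRAT1 (each except replicate 2 of either dose, up to 0.125), CD38 (unirradiated replicate 2, 0.0550) and EPCAM (unirradiated replicates 2 and 3, up to 0.0541). COL3A1 also missed the threshold after quantile normalization (0.0644) and COL1A1 with an intensity trend and robust prior (0.0544). The part of these markers in the results was not tested.

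Irradiated cells held less mRNA of the corona proteins CENPE and CENPF, of the inner kinetochore genes CENPK, CENPC and CENPU, of the microtubule-binding pair NDC80 and NUF2, and of KNTC1, and more mRNA of the checkpoint kinase BUB1 and of BIRC5. Of the 42 members, 8 fell (19.0%), 2 rose (4.76%) and 32 did not pass. Over all 18417 genes 8.18% fell and 6.35% rose, 14.5% in all, beside 23.8% of the members. The members were the brighter set, with a median unirradiated level of 8.4 beside 6.42 for all genes. With the dimmest 33.3% of genes left out, 3178 genes were called rather than 2676, out of fewer genes, and 12 members rather than 10. The 14.5% is therefore lower than the share among brighter genes and is not a like mark for the members. Whether more members were called than genes of like brightness was not tested. The test was limma's moderated test across all genes with Benjamini-Hochberg adjustment, and "fell" and "rose" mean an adjusted p under 0.05. The median log2 difference of the members was -0.08, beside 0.04 for all genes. As deposited, 28 members were below 0 and 14 above. After quantile normalization these counts were 24 and 18, and the medians -0.04 for members and 0.01 for all genes. The upper quartiles of the irradiated arrays (7.87, 7.91 and 7.88) lay below those of the unirradiated arrays (7.96, 7.96 and 7.92), so the median of all genes is an unlike mark for bright genes such as these. Falls went further than rises: 3 members were lower by at least 0.5 on the log2 scale and 0 were higher by that much, beside 2.45% of all genes lower and 0.988% higher. Leaving out single arrays gave between 6 and 9 called members; the count was 6 without unirradiated replicate 2 and without irradiated replicate 3. After quantile normalization 6 fell and 3 rose.

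**Figure D1:**
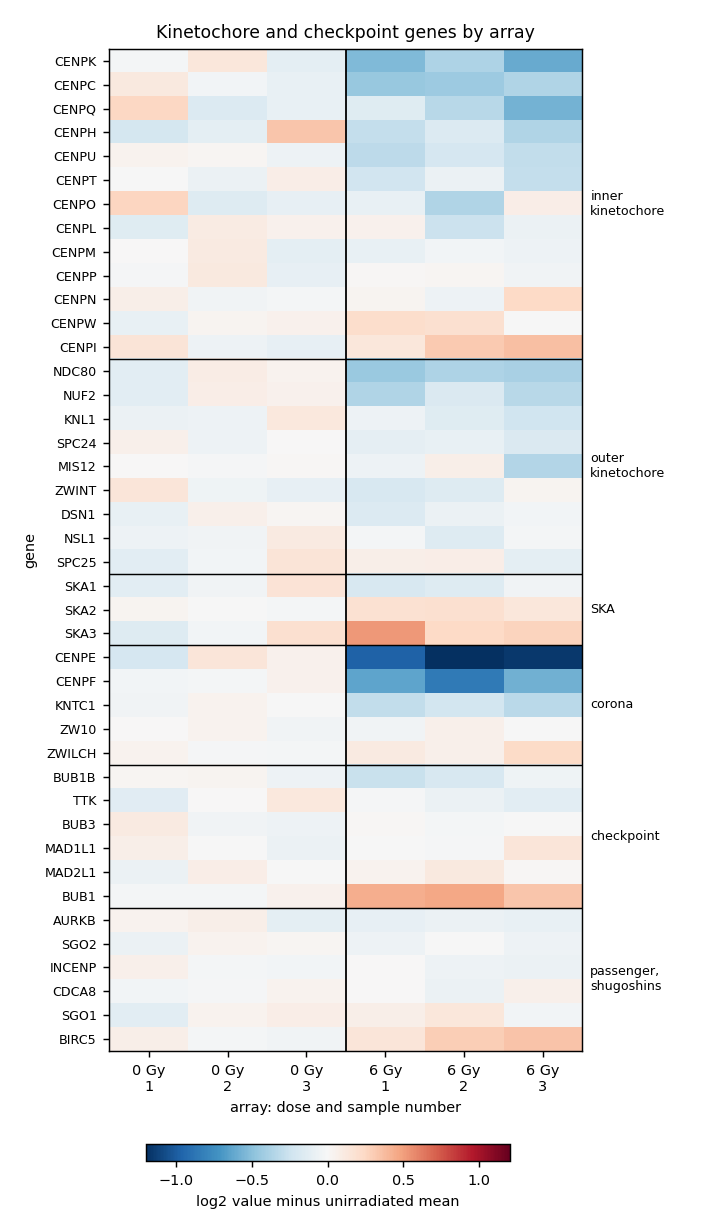
Log2 value of each of the 42 measured members on each of the 6 arrays, minus the gene's mean over the 3 unirradiated arrays (colour), grouped by role and ordered by difference within a role. The row of CENPE is the darkest blue on all 3 irradiated arrays, while BUB1 is red on all 3.

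Separation of the groups was no more frequent among the members than among all genes. The 3 irradiated values lay all below the 3 unirradiated values for 9 members (15.7% of all genes) and all above them for 5 (19% of all genes), together 33.3% of the members beside 34.7% of all genes. On irradiated replicates 1, 2 and 3, 26, 29 and 30 of the 42 members were below their unirradiated mean. On unirradiated replicates 1, 2 and 3 the counts were 23, 24 and 21. Between group means, 28 members had a difference below 0, beside 7409 of all 18417 genes. Among the 32 members that did not pass, differences ran from -0.35 to 0.34, with 20 below 0 and 12 above. The 95% intervals of these 32 reached no lower than -0.63 and no higher than 0.58, each interval taken singly and without adjustment for their number. In simulated data with 50 genes changed at each size, log2 changes of 0.25 were recovered in 2% of genes. Far more genes, 2676, were called in the real data, which loosens the adjusted threshold, so 2% is not the share recovered here. Real differences near that size passed for some genes (CDC20, 0.24) and not for others (CENPI, 0.27). A member that did not pass may still have changed by such an amount.

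**Figure D2:**
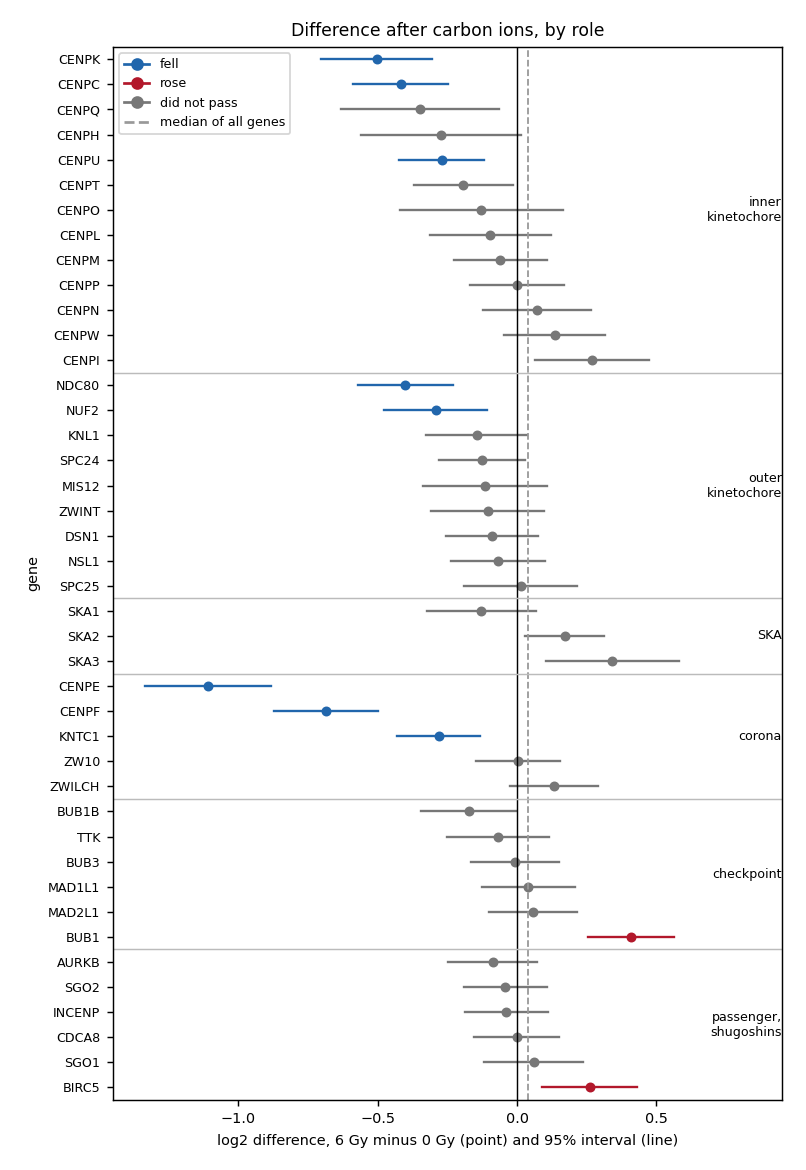
Log2 difference, 6 Gy minus 0 Gy, of each member (point) with limma's 95% interval (line), grouped by role; blue members fell, red rose and grey did not pass, and the dashed line is the median of all genes at 0.04. CENPE at -1.11 lies farthest from 0, and the falls belong to the inner kinetochore, outer kinetochore and corona groups.

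The corona, an outer mesh that expands on unattached kinetochores, held the largest differences. CENPE, a kinesin motor that carries chromosomes to the spindle equator, read 7.02, 7.37 and 7.28 on the unirradiated arrays and 6.25, 6.03 and 6.06 on the irradiated arrays. The groups lay far apart: the difference was -1.11 ± 0.10 (SE), or 53.6% less mRNA signal (limma adjusted p 1.50e-04). CENPF, a large coiled-coil protein that binds microtubules and the dynein regulators, read 8.920, 8.930 and 8.999 unirradiated and 8.320, 8.102 and 8.373 irradiated. Its difference was -0.68 ± 0.08 (SE), with an adjusted p of 7.46e-04 in limma, and every irradiated value lay below every unirradiated one. The RZZ complex, which brings MAD1 and MAD2 and the motor dynein to the corona, was uneven. Its scaffold KNTC1, also called ROD, fell from 8.30, 8.38 and 8.34 to 8.04, 8.12 and 8.02, or by 0.28 ± 0.07 (SE), and limma gave an adjusted p of 0.0208. The groups did not overlap, but the call ended without any 1 array other than irradiated replicate 2 (limma adjusted p up to 0.0834, without unirradiated replicate 2). ZW10, which links the complex to dynein, differed by 0.003 (95% interval -0.15 to 0.15), and ZWILCH, the remaining subunit, by 0.13 (-0.03 to 0.29).

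The inner kinetochore, which stays on the centromere through the cell cycle, had 13 measured members, of which 3 fell, 0 rose and 10 did not pass, with a median of -0.13. CENPK, which pairs with CENPH, read 9.37, 9.53 and 9.28 unirradiated and 8.86, 9.02 and 8.79 irradiated. That is a difference of -0.50 ± 0.09 (SE) with no overlap (limma adjusted p 0.00541). CENPC, which binds the CENPA nucleosome and recruits the outer plate, went from 7.47, 7.31 and 7.26 to 6.89, 6.92 and 6.98, again with no overlap. It was lower by 25.1%, or -0.42 ± 0.08 (SE) on the log2 scale, and limma gave an adjusted p of 0.00607. CENPU, a member of the CENPO group that binds the kinase PLK1, moved from 8.244, 8.230 and 8.142 to 7.895, 8.001 and 7.910. The difference was -0.27 ± 0.07 (SE), and its adjusted p of 0.0275 in limma became 0.0519 after quantile normalization. The CENPU call also ended without unirradiated replicate 1 (0.0968), unirradiated replicate 2 (0.0950), irradiated replicate 1 (0.0823) or irradiated replicate 3 (0.0612).

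The partners of these 3 genes did not pass. CENPQ, which binds CENPU, read 6.286, 5.873 and 5.950 unirradiated and 5.890, 5.703 and 5.473 irradiated, so that the groups overlapped and the difference of -0.35 ± 0.13 (SE) missed the threshold (limma adjusted p 0.0996). CENPO and CENPP, further subunits of the group that holds CENPU and CENPQ, differed by -0.13 and 0.0008. CENPH differed by -0.27 with an interval from -0.56 to 0.02. CENPI, the solenoid subunit beside CENPH and CENPK, leaned the other way at 0.27 ± 0.09 (SE). Its values were 8.20, 7.99 and 7.95 unirradiated and 8.18, 8.36 and 8.41 irradiated, overlapping through unirradiated replicate 1, and its limma adjusted p was 0.0782. CENPI would be called with the dimmest 33.3% of genes left out (0.0490), after quantile normalization (0.0243) and with an intensity trend and robust prior (0.0431). CENPM, the small subunit of the same group, differed by -0.06. CENPL and CENPN, which bind each other and the CENPA nucleosome, differed by -0.10 and 0.07. CENPT, which recruits NDC80 directly, differed by -0.19, and its histone-fold partner CENPW by 0.13.

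**Figure D3:**
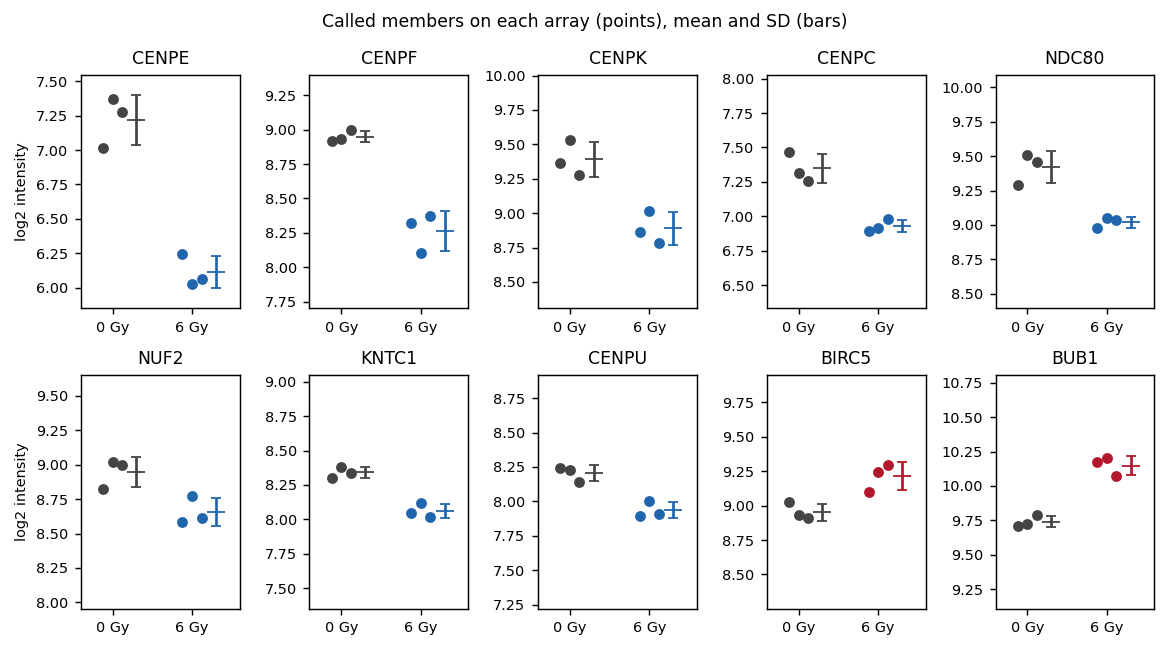
Log2 intensity of the 10 called members on each unirradiated (0 Gy) and irradiated (6 Gy) array (points), with the mean and SD of 3 arrays beside them; each panel spans the same range on the log2 axis. In all 10 panels the groups are apart, by most for CENPE and by least for BIRC5 and NUF2.

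In the outer plate the 2 called genes encode the microtubule-binding arm of the NDC80 complex. NDC80, its largest subunit, read 9.29, 9.51 and 9.46 on unirradiated and 8.98, 9.05 and 9.03 on irradiated arrays. The difference was -0.40 ± 0.08 (SE), 24.3% less, with an adjusted p of 0.00763 in limma. NUF2, the coiled-coil partner of NDC80, read 8.822, 9.022 and 8.997 and then 8.585, 8.771 and 8.610. Its groups were close but apart, at -0.29 ± 0.08 (SE) and an adjusted p of 0.0424 in limma. The NUF2 call ended after quantile normalization (0.0607) and without unirradiated replicate 2 (0.142), unirradiated replicate 3 (0.120), irradiated replicate 1 (0.117) or irradiated replicate 3 (0.0975). The inward-facing pair SPC24 and SPC25, which anchors the complex to MIS12 and CENPT, did not pass: SPC24 differed by -0.13 (interval -0.28 to 0.03) and SPC25 by 0.01 (interval -0.19 to 0.22). All 3 irradiated values of SPC24 lay below its unirradiated values. Its interval overlapped that of NUF2 (-0.48 to -0.11), while the intervals of NDC80 (-0.57 to -0.23) and SPC25 did not overlap. A difference between the arms was not tested.

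The MIS12 complex, a stalk between CENPC and the outer plate, had 3 measured subunits and none passed. MIS12 differed by -0.11, DSN1 by -0.09 and NSL1 by -0.07, and the lowest bound of their intervals was that of MIS12 at -0.34. KNL1, the scaffold on which BUB1, BUBR1 and BUB3 assemble, differed by -0.14 (interval -0.33 to 0.04), and ZWINT, which links KNL1 to the RZZ complex, by -0.10 (-0.31 to 0.10). Of the 9 outer plate members 8 were below 0, and their median was -0.11. The SKA complex, which helps NDC80 track shrinking microtubules, leaned the other way in 2 of 3 genes without passing. SKA3 read 8.94, 9.06 and 9.29 unirradiated and 9.61, 9.33 and 9.36 irradiated, apart by a narrow gap (0.34 ± 0.11 SE, limma adjusted p 0.0592). SKA3 passed without unirradiated replicate 3 (0.0318), with the dimmest 33.3% of genes left out (0.0373), with an intensity trend and robust prior (0.0210) and with array weights (0.0287). SKA2 differed by 0.17 and passed under the trend and robust prior alone (0.0154), and SKA1 differed by -0.13. A second, dimmer SKA2 probe set differed by 0.10.

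Among checkpoint genes BUB1 alone passed, and it rose. BUB1, the kinase that marks centromeric histone H2A and brings shugoshin to the centromere, read 9.71, 9.72 and 9.79 unirradiated and 10.17, 10.20 and 10.07 irradiated. This was 1.33-fold, a difference of 0.41 ± 0.07 (SE) with an adjusted p of 0.00427 in limma, and the groups did not overlap. BUB1B, which encodes the related protein BUBR1 of the anaphase inhibitor, differed by -0.17, with an adjusted p of 0.163 in limma. The remaining components did not pass, and their intervals held 0 but also small changes in either direction. Of these intervals only that of TTK reached the size of the change called in CDC20 (0.24). BUB3, which carries BUB1 and BUBR1 to KNL1, differed by -0.006 (interval -0.16 to 0.15). MAD2L1, the MAD2 protein that captures CDC20, differed by 0.06 (-0.10 to 0.22), its receptor MAD1L1 by 0.04 (-0.13 to 0.21) and the initiating kinase TTK, also called MPS1, by -0.07 (-0.25 to 0.11).

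The chromosomal passenger complex corrects wrong attachments through the kinase AURKB, and 1 of its 4 genes passed. BIRC5, which encodes survivin, the subunit that binds phosphorylated histone H3, read 9.02, 8.93 and 8.91 unirradiated and 9.10, 9.24 and 9.29 irradiated. The gap between the groups was small, the difference 0.26 ± 0.08 (SE) and the adjusted p 0.0469 in limma. BIRC5 missed the threshold with array weights (0.0652) and without any 1 array other than irradiated replicate 1 (up to 0.135, without unirradiated replicate 2). A second BIRC5 probe set, fitted among all probe sets with 1 symbol, read 6.52, 6.68 and 6.43 and then 6.66, 7.07 and 6.85, a difference of 0.32 with overlapping groups (limma adjusted p 0.0796). AURKB differed by -0.09 (interval -0.25 to 0.07), CDCA8, known as borealin, by -0.002 (-0.15 to 0.15) and the scaffold INCENP by -0.04 (-0.19 to 0.11). The shugoshins, which protect centromeric cohesin, differed by 0.06 for SGO1 and -0.04 for SGO2.

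The CHR was common in these promoters, both in members that fell and in members that did not pass. Of 34 measured members with a RefSeq window, 18 (52.9%) held TTTGAA or TTCGAA on either strand, against 17.4% of 14239 tested genes in the table and 16.4% of all 35116 windows. TTCGAA reads the same on both strands. In 16 of the 34 (47.1%) the match began within 50 bases of the start, against 5.31% of the tested genes. A gene with several windows counted once if any held a match. Of 7 members that fell and had a window 4 held a CHR (CENPF, CENPC, NDC80 and NUF2), of 26 that did not pass 13 did, and BUB1, the only member that rose and had a window, held one beginning at base 2 after the start. A CCAAT box, CCAAT on either strand, was in 22 of the 34 (64.7%), against 42.2% of tested genes and 34.6% of windows, and 12 (35.3%) held both motifs, against 7.19% and 6.38%. One of 4 E2F-like words (TTTGGCGC, TTTCCCGC, TTTCGCGC or TTTGCCGC) was in 2 of the 34 (5.88%), against 5.51% of tested genes and 3.31% of windows. These counts are of letters in a window, and a match is not a binding site.

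**Figure D4:**
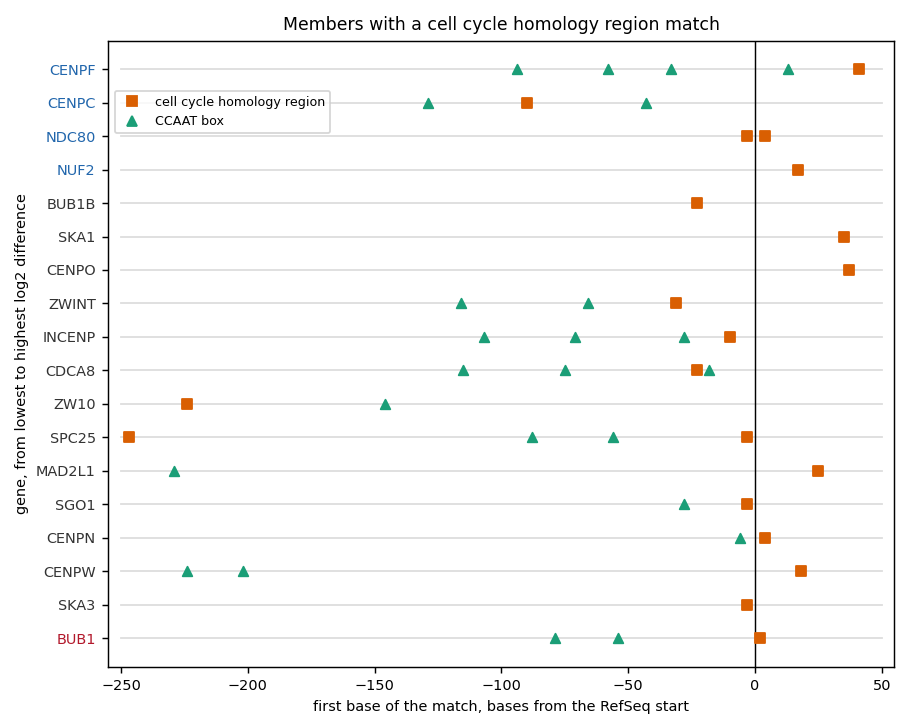
First base of each CHR match (squares) and CCAAT match (triangles) in bases from the RefSeq start, for the 18 measured members whose window holds a CHR, ordered from the lowest to the highest log2 difference (1 window per gene; blue names fell, the red name rose). Most squares lie within 50 bases of the start, in genes at both ends of the order.

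Other genes of the same process were read from 4 lists of related function. In the order given here 11.1%, 21.7%, 15.8% and 15.8% of their genes were called, beside 14.5% of all genes and 23.8% of the members. Of 18 measured centromere assembly and further kinetochore factors, 1 fell and 1 rose, with a median of -0.008. CLIP1, which tracks growing microtubule ends, read 7.44, 7.48 and 7.17 and then 6.78, 6.91 and 6.73 (-0.56, limma adjusted p 0.00429). SPAG5, known as astrin, which stabilises attached kinetochores, rose by 0.29, and its call ended without unirradiated replicate 1 (limma adjusted p 0.0647) or 2 (0.0514). The anaphase-promoting complex is the target that the checkpoint restrains, and 3 of 23 genes of that list fell and 2 rose (median -0.02). Its small subunits ANAPC16 and ANAPC15 were lower (-0.56 and -0.44), as was separase, ESPL1 (-0.26). CDC20, the activator that MAD2 holds, was 10.47, 10.37 and 10.47 unirradiated and 10.70, 10.66 and 10.67 irradiated, a rise of 0.24 with no overlap (limma adjusted p 0.0371), and the ubiquitin-conjugating enzyme UBE2S rose by 0.32. The calls of CDC20 and ESPL1 ended without any 1 of the 6 arrays (limma adjusted p up to 0.137 and 0.131), and that of ESPL1 also after quantile normalization (0.0670). The UBE2S call ended without unirradiated replicates 2 or 3 or irradiated replicates 1 or 2 (up to 0.118).

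Mitotic kinases and their cofactors included 1 that fell and 2 that rose of 19, with a median of 0.08. The centriole kinase PLK4 was lower (-0.41), and the spindle pole kinase AURKA (0.32) and BORA (0.31), a cofactor through which AURKA activates PLK1, were higher. These calls ended with 1 array left out for PLK4 (unirradiated replicates 1 or 3, irradiated replicates 2 or 3, limma adjusted p up to 0.0687), AURKA (unirradiated replicates 1 or 2, irradiated replicates 1 or 2, up to 0.0964) and BORA (unirradiated replicates 2 or 3, irradiated replicate 1, up to 0.0840). CCNB1, the mitotic cyclin, differed by 0.08 (limma adjusted p 0.527). Of 19 transcription factors of mitotic genes 3 fell and 0 rose, with a median of -0.08: RBL2 (-0.47) and E2F4 (-0.31), both subunits of the DREAM repressor, and NFYC (-0.28), a subunit of the CCAAT-binding factor. FOXM1 and MYBL2, activators of these promoters, differed by 0.15 and 0.17 without passing, though MYBL2 passed with an intensity trend and robust prior (0.0293). The E2F4 call ended without unirradiated replicate 1 (0.0557) or 2 (0.0520), and that of NFYC without unirradiated or irradiated replicates 1 or 2 (up to 0.109). The proliferation marker MKI67 read 8.55, 8.65 and 8.59 unirradiated and 7.45, 7.51 and 7.97 irradiated, with replicate 3 the least low, and fell by 0.95 (limma adjusted p 0.00107). The reference genes ACTB and GAPDH differed by 0.03 and 0.05.

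**Figure D5:**
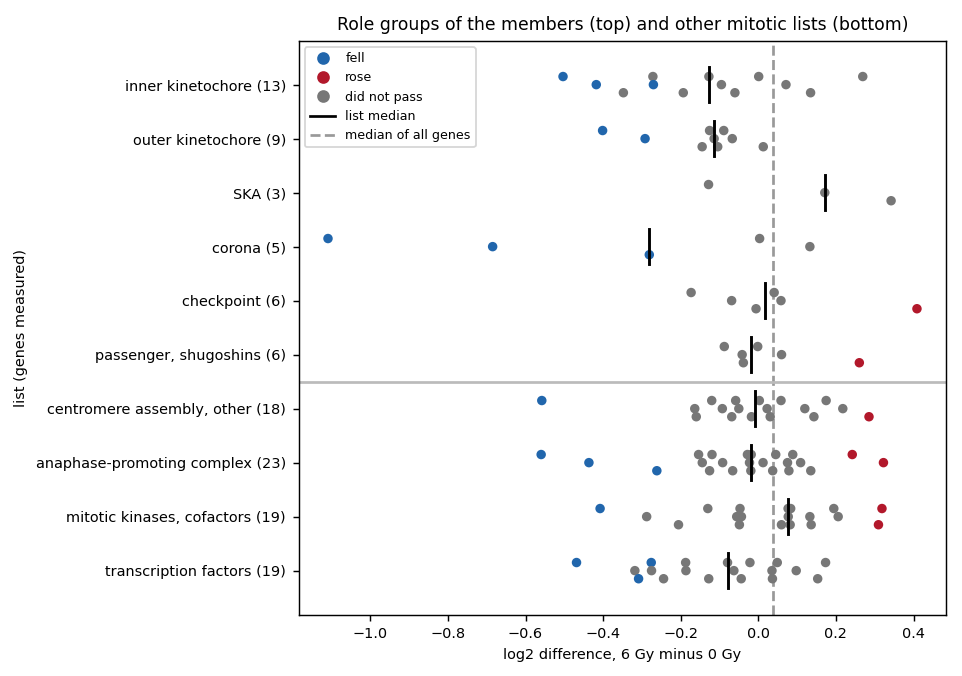
Log2 difference, 6 Gy minus 0 Gy, of each gene (points) in the 6 role groups of the members (above the line) and the 4 other mitotic lists (below it), with list medians (black bars) and the median of all genes (dashed). The corona median of -0.28 lies lowest, with 3 of its 5 genes called; in the other lists most genes are grey and did not pass.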

How the data were processed

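Gene expression was measured on 6 one-colour arrays of biotin-labelled total RNA extracted with Trizol, per the labels' protocols. The deposited table holds 33297 probe set values per array, which were read as log2 intensities; the base is inferred from their range. How they were normalized, and with what software, is not given in the sources used here. Array medians ran from 5.64 to 5.72. Probe sets were named from GEO's platform annotation, which can be old: 19460 listed 1 symbol, 1754 several and 12083 none. Of the single-symbol sets, 19429 matched RefSeq (GRCh38.p14) by Entrez ID. All 19460 single-symbol sets were used, those without a match under the symbol of the annotation.

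The deposited log2 values were compared with limma 3.58.1 (lmFit, eBayes; 4 residual and 5.85 prior degrees of freedom) in R 4.3.3, two-sided, without covariates or filter, with Benjamini-Hochberg adjustment over 18417 genes. On simulated data of 18417 genes, with 50 genes changed at each size, it recovered 2% of changes of 0.25, 56% of 0.5, 92% of 1 and 100% of 2 on the log2 scale, with 7 false calls. With so few changed genes the adjusted threshold was stricter than in the real data. Sequences, tables and figures used Python 3.11.15. The members and lists were chosen with earlier results of these data known. All members are named, and, of each other list, called genes with up to the 3 smallest p in each direction; CCNB1, FOXM1 and MYBL2 were named after their values were seen. Planned protein lengths were not analysed. Alternatives are given in the closing section.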

Additional observations from a re-analysis of the deposited data

How the results depend on the processing

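Of the 10 called members, 6 (CENPE, CENPF, CENPK, CENPC, NDC80 and BUB1) passed under all 13 alternative fits, and none of the 10 changed sign; of the 32 others, 28 never passed. At an adjusted p under 0.01, 1077 genes were called (384 higher, 693 lower), and 6 members (1 higher, 5 lower). With 1 array left out, all called genes ran from 1471 to 2184 (higher 619 to 887, lower 852 to 1324), called members from 6 to 9 (higher 1 to 2, lower 5 to 8) and the members' median difference from -0.0739 to -0.0549. That median was -0.0438 after quantile normalization and -0.0703 with array weights. Members called higher numbered 4 with the dimmest 33.3% of genes left out and 5 with an intensity trend and robust prior. All genes called higher numbered 1400 and 1419 in these 2 fits, and those called lower 1778 and 1818.

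Same-numbered arrays did not consistently deviate together (correlations of -0.0416, 0.1032 and -0.1113 for samples 1, 2 and 3). Sample 2 correlated best with its own number, and samples 1 and 3 did not. With that number as a replicate block, 1919 genes were called, 765 of them higher, and 9 members, 1 of them higher; CENPU (adjusted p 0.0580) and BIRC5 (0.0994) missed the threshold among members and AURKA (0.0594), CDC20 (0.0740), ESPL1 (0.0619), NFYC (0.0685), UBE2S (0.0595), COL1A1 (0.0860), COL3A1 (0.0582), TRAT1 (0.0780) and XBP1 (0.0875) among other genes, while CENPQ passed (0.0437); the block changed no other call among the 42 members or the other genes named as having risen or fallen.

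Some members changed sign without passing, most of them with a log2 difference near 0. CENPO (-0.13) and MIS12 (-0.11) lay farther from 0. Quantile normalization gave 0.0088 for BUB3, 0.0095 for CDCA8, 0.0011 for INCENP and 0.0269 for SGO2; subtracting array medians gave -0.0028 for CENPP and -0.00039 for ZW10, and array weights -0.0052 for ZW10. With 1 array left out the ranges were -0.0149 to 0.138 for CENPN, -0.229 to 0.000528 for CENPO, -0.0492 to 0.0595 for CENPP, -0.205 to 0.00261 for MIS12, -0.0491 to 0.0912 for SPC25, -0.0263 to 0.0271 for ZW10, -0.0359 to 0.046 for BUB3, -0.00967 to 0.078 for MAD1L1, -0.0326 to 0.0343 for CDCA8 and -0.00272 to 0.104 for SGO1. The cause was not tested.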

Other observations

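CENPA, the centromeric histone, and PMF1, the fourth MIS12 complex subunit, were each listed only on a probe set shared with another gene, so the signal cannot be assigned to either gene and was not tested. The set listing CENPA with SLC35F6 read 9.76, 9.89 and 9.68 on the unirradiated and 9.69, 9.73 and 9.81 on the irradiated arrays, and the groups overlapped. The set listing PMF1 with its read-through transcript PMF1-BGLAP read 10.83, 10.85 and 10.78 unirradiated and 10.58, 10.58 and 10.43 irradiated, so all 3 irradiated values were the lower ones.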
